A study of Mus musculus with 6 samples.

Results

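Platelet-derived growth factor (PDGF) ligands, their receptor Pdgfrb and a set of genes used to mark pericytes were followed in the left ventricle of mice that had undergone myocardial infarction, in which heart muscle dies for want of blood flow. The 9 genes were taken by symbol from the 34745 genes counted in each library: the ligands Pdgfa, Pdgfb, Pdgfc and Pdgfd, the receptor Pdgfrb, and the mural cell genes Rgs5, Cspg4, Notch3 and Mcam. The choice by symbol used no threshold on their values, but it was made with earlier results of these data known. All 9 passed the filter on low counts that left 13940 genes for testing. All mice had an infarction. The controls, MI-NS, were 3 libraries from mice labelled as given NS, which the labels do not spell out, and MI-DAPA were 3 libraries from mice given dapagliflozin, a drug that blocks glucose reuptake by SGLT2 in the kidney. Strain, sex, age, dose, duration and the time after infarction are not stated in the labels. The titles mark the libraries as biological replicates without tying them to animals, so p-values measure their spread only.

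Pericytes and vascular smooth muscle cells, together called mural cells, wrap the endothelial tube of small and larger vessels. Endothelial cells secrete PDGF-BB, which binds PDGF receptor beta on mural cells and recruits and keeps them at the vessel wall. PDGF-AA and PDGF-CC act mainly on PDGF receptor alpha, found on fibroblasts of the heart, while PDGF-DD acts on the beta receptor. The C and D ligands are secreted in a latent form that a protease must cut before they bind.

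Total counts were 17207974 to 20563188 per library, and the mitochondrial chromosome took 34.3% to 42.0% of them. The libraries carried the markers of ventricular muscle at high levels: 10 cardiomyocyte markers summed to 50261 to 53543 CPM (counts per library of 1e6 after TMM scaling) in MI-NS and to 61394 to 65033 CPM in MI-DAPA. Lists for other cell types moved as well. Summed levels were 3697 to 4588 CPM in MI-NS and 2319 to 2694 CPM in MI-DAPA for 14 fibroblast markers, and 1971 to 2215 against 1787 to 1910 CPM for 15 endothelial markers. For 13 smooth muscle markers they were 666 to 701 against 497 to 575 CPM. The groups did not overlap in these 4 sums, and their part in the results below was not tested. In bulk tissue, fewer cells of a type and less RNA per cell cannot be told apart.

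Per kilobase of exon, Rgs5 had the highest level of the 9 genes and Pdgfc the lowest in both groups. Rgs5 stood at 136 ± 14.5 CPM per kilobase in the MI-NS libraries and 118 ± 3.88 in MI-DAPA (SD, n = 3 for each group, as for all SDs given). Mcam followed at 25.4 ± 1.84 and 19.0 ± 2.18, Pdgfrb at 18.5 ± 1.14 and 16.1 ± 1.66, and Pdgfb at 15.7 ± 0.953 and 10.96 ± 0.444 CPM per kilobase. Over the 6 libraries, the values of Mcam overlapped with those of Pdgfrb, and those of Pdgfrb with those of Pdgfb, so these neighbours in the order were not separated. Notch3 stood at 9.36 ± 0.414 and 8.52 ± 0.972, Pdgfd at 5.20 ± 0.371 and 5.53 ± 0.464, Pdgfa at 3.53 ± 0.267 and 2.81 ± 0.287, Cspg4 at 3.09 ± 0.182 and 2.63 ± 0.131, and Pdgfc at 0.552 ± 0.160 and 0.447 ± 0.137 CPM per kilobase. Pdgfa and Cspg4 overlapped, and the other neighbours did not. Among the ligands Pdgfb was thus the most abundant transcript in every library. With the longest transcript as the length, Pdgfb passed Pdgfrb and Pdgfa passed Pdgfd in MI-NS.

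**Figure D1:**
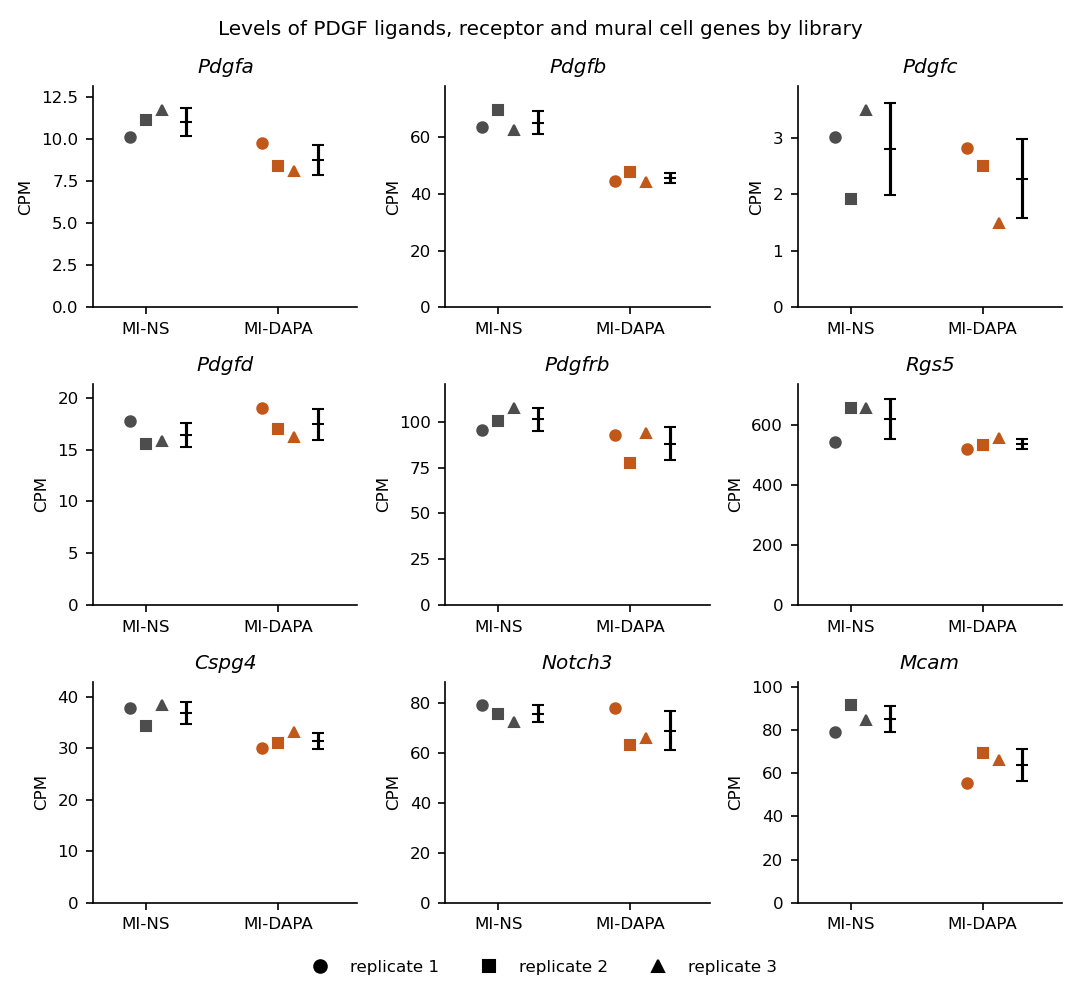
Level of each of the 9 genes in CPM (linear axes from 0) in each library, by group, with replicate number as the symbol and the group mean ± SD as the bar beside it. The 3 MI-DAPA libraries lie below all MI-NS libraries for Pdgfa, Pdgfb, Pdgfrb, Cspg4 and Mcam, and the groups overlap for Pdgfc, Pdgfd, Rgs5 and Notch3.

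Setting MI-DAPA against MI-NS asked how the drug alters expression in the infarcted ventricle, in hearts that the series' design text describes as failing. Of the 9 genes, Pdgfb and Mcam fell in MI-DAPA (edgeR quasi-likelihood test, Benjamini-Hochberg adjusted p under 0.05 over all tested genes), and the other 7 did not pass. DESeq2 and limma-voom called these 2 as well. Among all tested genes 7.83% were lower and 8.69% higher by the same rule. At an unadjusted p under 0.05, 5 of the 9 were lower, against 16.3% of all tested genes lower and 15.9% higher. Log2 changes were below 0 for 8 genes, with a median of -0.23, against -0.02 over all tested genes. In 5 of the 9 every MI-DAPA library was below every MI-NS library, while 18.5% of all tested genes were lower without overlap and 18.4% higher. The share of lower calls among the members thus rests on 2 genes, and with 3 against 3 the exact permutation test of a single level can go no lower than p = 0.1.

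Pdgfb, the endothelial ligand of the beta receptor, fell in MI-DAPA. The gene (ENSMUSG00000000489) lies on the minus strand of chromosome 15 from 79995900 to 80014808 (mm10). It stood at 63.5, 69.8 and 62.5 CPM in MI-NS replicates 1 to 3 and at 44.7, 47.7 and 44.4 CPM in MI-DAPA replicates 1 to 3. Both groups were tight, and the lowest MI-NS library was well above the highest MI-DAPA library. The change was 1.43-fold down (log2 -0.52 ± 0.08 SE, 95% interval -0.70 to -0.34, edgeR adjusted p = 0.00577; exact two-sided permutation p = 0.1, 0.18 adjusted over the 9 genes). The call was kept with any single library left out, with adjusted p of 0.0132 to 0.0318 by edgeR. It was lost without replicate 3 of both groups, where the log2 change was -0.51 and the adjusted p 0.0885.

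Pdgfa encodes the A chain, which acts through PDGF receptor alpha. The gene (ENSMUSG00000025856) lies on the minus strand of chromosome 5 from 138976014 to 138997370. Its level was 10.1, 11.1 and 11.8 CPM in MI-NS and 9.78, 8.41 and 8.10 CPM in MI-DAPA. The groups did not overlap, but MI-DAPA replicate 1 lay close to MI-NS replicate 1, and the log2 change of -0.32 ± 0.13 did not pass (edgeR adjusted p = 0.113). Counting strand is not known, and 813 of the 3119 exon bases of Pdgfa are shared with exons of 6330403L08Rik on the opposite strand, so reads there may have gone to either gene. 6330403L08Rik rose, from 12.6 ± 1.505 to 17.5 ± 1.28 CPM (log2 0.47 ± 0.12, edgeR adjusted p = 0.0273).

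Pdgfc and Pdgfd encode the ligands that need proteolytic activation. Pdgfc (ENSMUSG00000028019, plus strand of chromosome 3, 81036416 to 81214040) had the lowest counts of the set, with 68, 39 and 59 reads counted in the MI-NS libraries and 57, 51 and 26 in those of MI-DAPA. The groups overlapped, and the 95% interval of the log2 change, -0.99 to 0.41, spans both directions. Pdgfd (ENSMUSG00000032006, plus strand of chromosome 9, 6168612 to 6378843) stood at 17.7, 15.6 and 15.9 CPM in MI-NS and at 19.1, 17.0 and 16.2 CPM in MI-DAPA. The groups overlapped as well, and the log2 change was 0.09 ± 0.10 (interval -0.15 to 0.32, edgeR adjusted p = 0.597), or -0.01 when only library totals were used for scaling.

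The makeup of the ligand transcripts was compared next. On the per-kilobase scale, Pdgfb made up 61.8%, 65.4% and 61.3% of the summed level of the 4 ligands in MI-NS; in MI-DAPA it made up 52.4%, 57.2% and 57.0%. Pdgfd made up 22.7%, 19.3% and 20.5% in MI-NS, against 29.5%, 26.9% and 27.5% in MI-DAPA. The groups did not overlap for either ligand. Shares within a library add up to the whole, so these 2 differences are not separate results. The level of Pdgfd itself did not pass (log2 0.09 ± 0.10, edgeR adjusted p = 0.597). The means were 62.8% ± 2.24 and 55.6% ± 2.70 for Pdgfb and 20.8% ± 1.76 and 27.97% ± 1.39 for Pdgfd (SD, n = 3, exact two-sided permutation p = 0.1 for each, 0.2 adjusted over the 4 ligands). Shares of Pdgfa (14.1% and 14.2%) and Pdgfc (2.22% and 2.25%) were nearly equal in the group means. With the longest transcript as the length, the mean share of Pdgfb was 66.1% in MI-NS and 59.7% in MI-DAPA, and that of Pdgfd 15.6% and 21.4%.

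**Figure D2:**
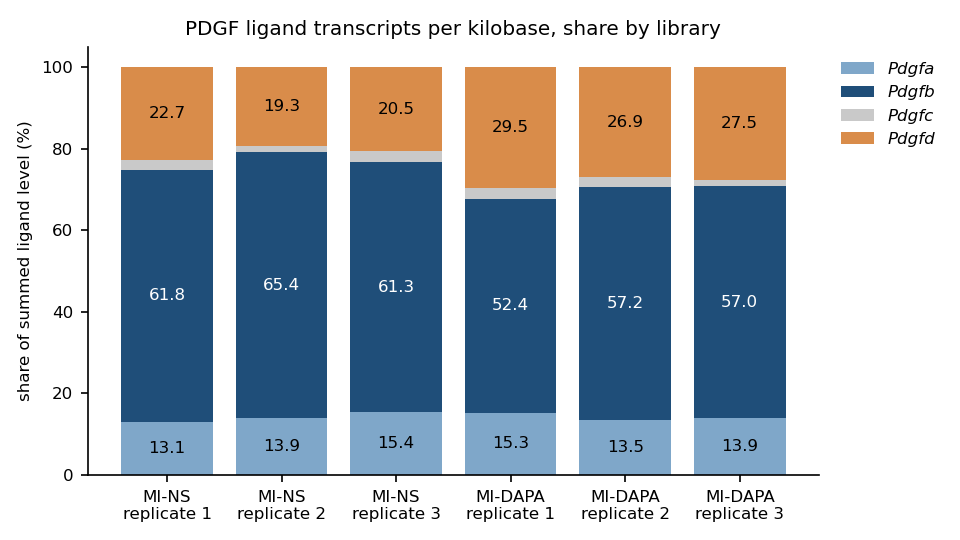
Share of each PDGF ligand (percent, stacked from 0 to 100) in the summed level of the 4 ligands in CPM per kilobase of exon, 1 bar per library. Pdgfb takes 61.3% to 65.4% in MI-NS and 52.4% to 57.2% in MI-DAPA, and Pdgfd 19.3% to 22.7% and 26.9% to 29.5%; shares of Pdgfc are drawn without a printed value.

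Pdgfrb, the receptor of mural cells for PDGF-BB and PDGF-DD, did not pass the test. The gene (ENSMUSG00000024620) lies on the plus strand of chromosome 18 from 61045150 to 61085061. Its level was 95.4, 101 and 108 CPM in MI-NS and 92.7, 77.7 and 94.0 CPM in MI-DAPA. The groups did not overlap, yet only MI-DAPA replicate 2 lay clearly apart. The log2 change was -0.20 ± 0.09 (interval -0.41 to 0.01, edgeR adjusted p = 0.178), and -0.11 without MI-DAPA replicate 2. Pdgfra, the alpha receptor and no member of the set, had means of 43.1 ± 5.43 CPM in MI-NS and 37.1 ± 0.665 CPM in MI-DAPA and did not pass either (log2 -0.22 ± 0.10, edgeR adjusted p = 0.175).

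Mcam encodes CD146, an adhesion molecule of the immunoglobulin superfamily carried by mural and endothelial cells, and was the only mural cell gene of the set that fell. The gene (ENSMUSG00000032135) lies on the plus strand of chromosome 9 from 44134469 to 44142727. Levels were 79.1, 91.4 and 84.6 CPM in MI-NS and 55.4, 69.3 and 66.1 CPM in MI-DAPA. All MI-DAPA libraries were below all MI-NS libraries, with MI-DAPA replicate 1 lowest. The change was 1.34-fold down (log2 -0.42 ± 0.10, interval -0.65 to -0.19, edgeR adjusted p = 0.0260; exact permutation p = 0.1). The call was lost without MI-NS replicate 2 or 3 or MI-DAPA replicate 1 or 3, with adjusted p of 0.0697 to 0.0812 by edgeR and log2 changes of -0.43 to -0.33.

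Rgs5, a GTPase-activating protein that dampens signalling from Gi- and Gq-coupled receptors and is one of the most used pericyte markers, had by far the highest level of the set. The gene (ENSMUSG00000026678) lies on the plus strand of chromosome 1 from 169655501 to 169695813. It stood at 543, 658 and 655 CPM in MI-NS and at 521, 533 and 556 CPM in MI-DAPA. MI-NS replicate 1 lay within the range of MI-DAPA, so the groups overlapped. The log2 change was -0.21 ± 0.09 (interval -0.41 to 0.00, edgeR adjusted p = 0.151). Without MI-NS replicate 1 it was -0.28 and passed (adjusted p = 0.0438), and with any other library left out it did not pass.

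The promoter windows of Mcam, which fell, and of Rgs5, which did not pass the test, are set side by side, since these genes share use as pericyte markers and differ in their calls. Whether their changes differ from each other was not tested. They are RefSeq windows of GRCm38.p6, 250 bases before to 50 after the start, each 5′ to 3′ on the plus strand of its chromosome, at chr9:44134408-44134707 for Mcam and chr1:169655251-169655550 for Rgs5. Capitals mark the GC box GGGCGG, searched on both strands.
Mcam: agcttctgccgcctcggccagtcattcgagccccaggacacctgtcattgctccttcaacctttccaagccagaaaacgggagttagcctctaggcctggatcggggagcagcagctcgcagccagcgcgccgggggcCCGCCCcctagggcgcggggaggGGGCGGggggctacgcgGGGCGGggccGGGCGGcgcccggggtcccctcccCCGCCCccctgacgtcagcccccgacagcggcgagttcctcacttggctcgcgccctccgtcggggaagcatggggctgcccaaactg
Rgs5: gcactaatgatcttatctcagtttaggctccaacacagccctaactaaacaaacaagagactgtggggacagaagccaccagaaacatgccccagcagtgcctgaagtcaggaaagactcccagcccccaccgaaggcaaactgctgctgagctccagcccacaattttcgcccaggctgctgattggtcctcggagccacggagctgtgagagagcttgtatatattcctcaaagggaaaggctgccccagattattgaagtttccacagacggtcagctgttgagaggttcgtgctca
The Mcam window holds 5 GC boxes and the Rgs5 window 0, and 35.7% of the 32851 windows of this length hold at least 1. Of the other members with a window, Notch3 has 4, Cspg4 2, Pdgfa 1 and 2 in its 2 windows, and Pdgfc and Pdgfd 0. The RBPJ core TGGGAA (25.6% of windows), the TEAD motif GGAATG (14.7%; it can overlap the RBPJ core) and the CArG box bound by SRF (1.63%) have 0 matches in the windows of Mcam, Rgs5, Cspg4 and Notch3, on either strand. Among the ligands, 1 window of Pdgfa and that of Pdgfd hold 1 RBPJ core each. The Pdgfc window holds 1 CArG box and 2 TEAD motifs. A match or its absence describes these letters only. Of the 9 members 7 have a window in the RefSeq table, and Pdgfb and Pdgfrb have none.

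Cspg4 encodes the NG2 proteoglycan of pericytes, and Notch3 a receptor of mural cells that responds to Jagged and Delta-like ligands on endothelium. Cspg4 (ENSMUSG00000032911, plus strand of chromosome 9, 56865104 to 56899870) stood at 37.9, 34.4 and 38.4 CPM in MI-NS and 30.0, 31.0 and 33.1 CPM in MI-DAPA. Its groups lay apart by a narrow gap, and the log2 change of -0.23 ± 0.09 did not pass (edgeR adjusted p = 0.0990). Notch3 (ENSMUSG00000038146, minus strand of chromosome 17, 32120820 to 32166880) stood at 79.1, 75.6 and 72.4 CPM in MI-NS and 77.9, 63.1 and 65.9 CPM in MI-DAPA. MI-DAPA replicate 1 was as high as the MI-NS libraries, and the log2 change was -0.14 ± 0.09 (interval -0.35 to 0.08, edgeR adjusted p = 0.366). Within MI-DAPA, replicate 1 was the highest for Notch3 and all ligands but Pdgfb and the lowest for Mcam, Rgs5 and Cspg4.

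**Figure D3:**
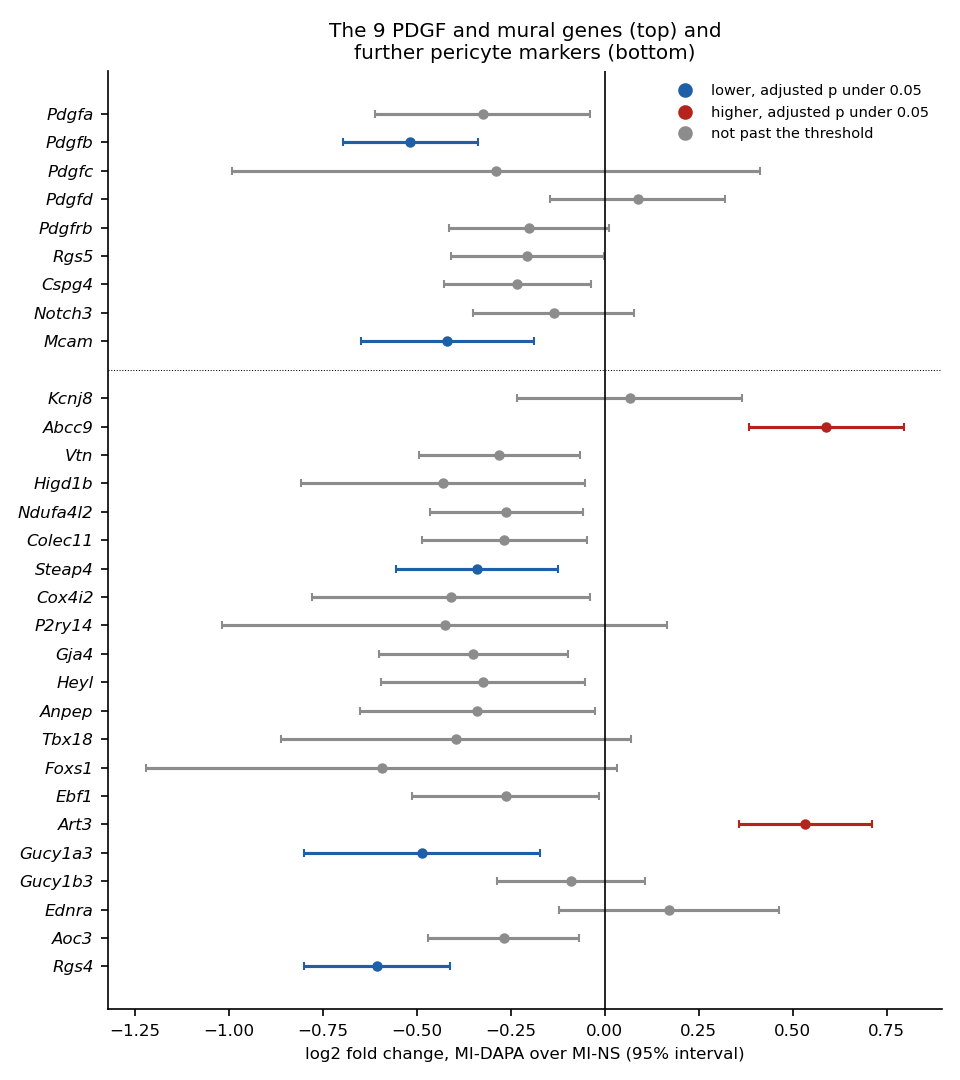
Log2 fold change of MI-DAPA over MI-NS with its 95% interval by edgeR, for the 9 genes of the set above the dotted line and further pericyte markers below it. Pdgfb, Mcam, Steap4, Gucy1a3 and Rgs4 are past the threshold below 0, Abcc9 and Art3 above 0, and most other points lie left of 0 without passing.

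A list of 22 further pericyte markers, all of them tested, held small differences mostly below 0. Of these genes 3 fell, 2 rose and 17 did not pass, with a median log2 change of -0.30. Without overlap between the groups, 14 were lower and 2 higher. Over all tested genes 7.83% fell and 8.69% rose, and 18.5% were lower and 18.4% higher without overlap. The counts of this list and of those below were not tested against these shares. Rgs4, an RGS protein like Rgs5, fell 1.52-fold, from 23.2 ± 0.700 to 15.2 ± 0.627 CPM (log2 -0.61 ± 0.09, edgeR adjusted p = 0.00502). The metalloreductase gene Steap4 fell 1.27-fold, from 37.9 ± 3.83 to 29.9 ± 0.535 CPM (log2 -0.34 ± 0.09, edgeR adjusted p = 0.0416). Gucy1a3, the deposited name of a nitric oxide receptor subunit now called Gucy1a1, fell 1.40-fold, from 25.7 ± 4.28 to 18.4 ± 2.00 CPM (log2 -0.49 ± 0.14, edgeR adjusted p = 0.0447). Its partner subunit Gucy1b3 did not pass (log2 -0.09 ± 0.09). The count of 3 was 1 without MI-NS replicate 1 or 3 or MI-DAPA replicate 1 or 3, and 6 when only library totals were used for scaling.

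The pericyte markers that rose were Abcc9 and Art3. Abcc9 encodes SUR2, a subunit of ATP-sensitive potassium channels that heart muscle cells also use. It stood at 226, 182 and 200 CPM in MI-NS and at 321, 294 and 301 CPM in MI-DAPA, a 1.505-fold rise (log2 0.59 ± 0.09, edgeR adjusted p = 0.00592). Kcnj8 encodes the pore subunit that pairs with SUR2 in pericytes; it stood at 29.5, 38.5 and 33.2 CPM in MI-NS and 39.1, 30.0 and 37.0 CPM in MI-DAPA, with overlap and a log2 change of 0.07 ± 0.13. Art3, of the ADP-ribosyltransferase family, rose 1.45-fold, from 106 ± 6.10 to 154 ± 9.01 CPM (log2 0.53 ± 0.08, edgeR adjusted p = 0.00541). With these 2 genes the 22 markers summed to 674 to 713 CPM in MI-NS and 769 to 799 CPM in MI-DAPA. The 20 others, a selection made after the values were seen, summed to 377 to 401 and 321 to 335 CPM.

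The remaining 15 markers did not pass. Among genes found in heart and brain pericytes, Vtn had a log2 change of -0.28, Higd1b -0.43, Ndufa4l2 -0.26, Colec11 -0.27 and Cox4i2 -0.41. The connexin gene Gja4 had a log2 change of -0.35, the Notch target Heyl -0.32, the aminopeptidase Anpep -0.34 and the amine oxidase Aoc3 -0.27. The transcription factor genes Tbx18, Foxs1 and Ebf1 had log2 changes of -0.40, -0.59 and -0.26, and the purine receptor P2ry14 -0.43. The endothelin receptor Ednra was the one with a positive value, 0.17 ± 0.13. The edgeR adjusted p of the genes named here went from 0.0626 for Gja4 up to 0.403 for Ednra.

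Of 13 smooth muscle markers, 6 fell, 1 rose and 6 did not pass, with a median log2 change of -0.39. Acta2, smooth muscle actin, fell from 157 ± 16.1 to 89.2 ± 4.57 CPM (log2 -0.82 ± 0.09, edgeR adjusted p = 0.00317). The actin-binding gene Tagln fell from 67.1 ± 10.96 to 35.5 ± 1.39 CPM (log2 -0.92 ± 0.12, edgeR adjusted p = 0.00451). Myh11, the smooth muscle myosin heavy chain, fell from 97.8 ± 6.998 to 73.1 ± 2.90 CPM (log2 -0.42 ± 0.08, edgeR adjusted p = 0.0102), and so did the light chain Myl9 (log2 -0.49 ± 0.10, edgeR adjusted p = 0.0138). The rise was that of Myocd, a coactivator of SRF in smooth and heart muscle (log2 0.50 ± 0.11, edgeR adjusted p = 0.0218). Its call did not survive leaving out MI-NS replicate 1 or 2 or MI-DAPA replicate 2 or 3, or scaling by library totals, and 3 genes of the list fell without MI-DAPA replicate 3. Acta2 and Tagln are also made by activated fibroblasts.

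Of 21 other genes of PDGF signalling, 3 fell, 3 rose and 15 did not pass, with a median log2 change of -0.07. Over all tested genes 7.83% fell and 8.69% rose. The 3 list genes that fell were Plat, Lrp1 and Pdgfrl. Plat, the tissue plasminogen activator that cuts latent PDGF-CC, stood at 33.4, 35.5 and 37.4 CPM in MI-NS and 20.7, 25.2 and 22.9 CPM in MI-DAPA, a 1.54-fold fall (log2 -0.63 ± 0.10, edgeR adjusted p = 0.00625). The co-receptor gene Lrp1 (log2 -0.50 ± 0.13, edgeR adjusted p = 0.0303) and the receptor-like gene Pdgfrl (log2 -1.17 ± 0.22, edgeR adjusted p = 0.0109) fell as well. Of those that rose, Furin, a convertase that processes the A and B chain precursors, went from 76.2 ± 1.58 to 94.7 ± 4.45 CPM (log2 0.31 ± 0.07). The others were intracellular signalling genes, the phosphatase Ptpn11 (0.38 ± 0.08) and the phosphoinositide 3-kinase subunit Pik3r1 (0.69 ± 0.12). Plau, which cuts PDGF-DD in human cells, did not pass (log2 -0.07 ± 0.27). The count of rises was 1 without MI-NS replicate 3 or with scaling by library totals, and 5 by DESeq2. The count of falls was 2 with any single library other than MI-NS replicate 2 left out, and with a replicate block.

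Notch3 has partners in the same libraries: of 26 other genes of Notch signalling 5 fell and 21 did not pass (median log2 change -0.24). The target gene Hey1 fell from 16.1 ± 0.935 to 9.75 ± 0.765 CPM (log2 -0.72 ± 0.11, edgeR adjusted p = 0.00553), and the glycosyltransferase gene Mfng from 13.5 ± 1.011 to 8.56 ± 0.474 CPM (log2 -0.65 ± 0.11, edgeR adjusted p = 0.00785). Notch2 (-0.38), the ligand gene Jag1 (-0.46) and the feedback inhibitor Nrarp (-0.31) were the others that fell. The endothelial ligand Dll4 (-0.28 ± 0.10) and the receptors Notch1 (-0.23 ± 0.10) and Notch4 (-0.25 ± 0.10) did not pass. The count was 2 without MI-NS replicate 1 or 3 or MI-DAPA replicate 1 or 3.

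Of the 8 other genes listed for the R4 family of RGS proteins, to which Rgs5 belongs, 4 were tested. Rgs4, described among the pericyte markers, and Rgs16 (-1.42 ± 0.34) fell, and Rgs2 (0.50 ± 0.16) and Rgs3 (-0.18 ± 0.09) did not pass by edgeR. Only 1 of the 4 fell without MI-NS replicate 1 or 3 or MI-DAPA replicate 1 or 3. The list had 0 rises in the main fit. It had 1 without MI-DAPA replicate 1, with no filter on low counts, with a replicate block and by DESeq2.

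Ratios within a library, which do not depend on library scaling, placed the 9 genes against each other and against other cell types. There were 35 such ratios, compared by exact two-sided permutation tests with p-values adjusted over all of them; the smallest adjusted p was 0.318. Relative to Pdgfrb, the group means of Rgs5, Cspg4 and Notch3 differed by 0.00, -0.03 and 0.06 on the log2 scale, with overlap. Pdgfb over Pdgfrb was -0.63 ± 0.14 in MI-NS and -0.94 ± 0.21 in MI-DAPA, Mcam over Pdgfrb -0.25 ± 0.11 and -0.47 ± 0.29, and Pdgfd over Pdgfrb -2.62 ± 0.18 and -2.33 ± 0.18, all with overlap between the groups.

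Against the mean log2 level of 15 endothelial markers, Pdgfb and Mcam were lower in every MI-DAPA library than in any MI-NS library. The log2 ratio of Pdgfb was -0.66 ± 0.06 and -0.91 ± 0.06, a difference of -0.25, and that of Mcam -0.28 ± 0.02 and -0.44 ± 0.12, a difference of -0.16 (SD, n = 3; exact permutation p = 0.1, adjusted 0.318, for both). For Pdgfd the ratio was higher without overlap, at -2.65 ± 0.18 in MI-NS and -2.30 ± 0.17 in MI-DAPA. The ratios of Pdgfrb, Rgs5, Cspg4 and Notch3 to the endothelial mean differed between the groups by 0.03 to 0.13, with overlap. Of these endothelial markers 6 fell and 9 did not pass, with a median log2 change of -0.30. That count dropped to 2 when MI-NS replicate 2 or MI-DAPA replicate 3 was left out, and to 1 when MI-NS replicate 3 or MI-DAPA replicate 1 was; it was 10 when only library totals were used for scaling.

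Against the mean of 14 fibroblast markers, of which 11 fell and 3 did not pass (median log2 change -0.77), the ratios lay on the other side. Changes within this list were uneven, from log2 -0.22 for Pdgfra to -1.45 for the collagen gene Col3a1. The ratios refer to the mean of the list and not to each marker in it. Pdgfa, Pdgfd, Pdgfrb, Rgs5, Cspg4, Notch3 and Mcam were all higher relative to fibroblast markers in every MI-DAPA library, with differences in the log2 ratio from 0.39 for Mcam to 0.90 for Pdgfd, and Pdgfb and Pdgfc overlapped (exact permutation p = 0.1 for each of the 7, adjusted 0.318). Against smooth muscle markers only the ratio of Pdgfd separated the groups, by 0.36.

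**Figure D4:**
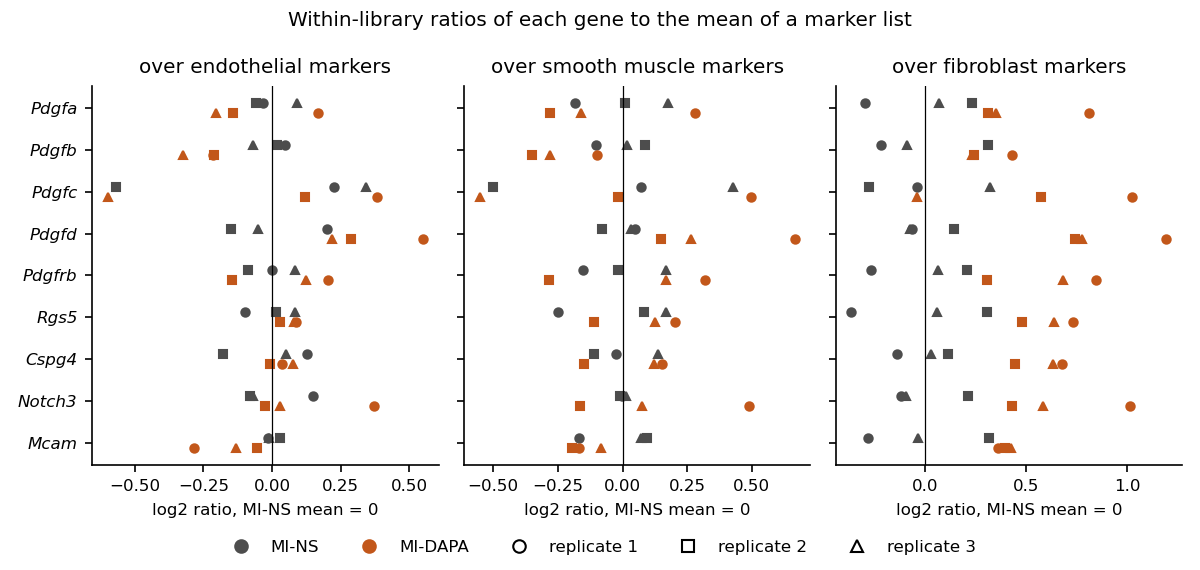
Log2 ratio of each gene to the mean log2 level of the endothelial, smooth muscle or fibroblast markers in the same library, set to 0 at the MI-NS mean; colours give the group and symbols the replicate. Pdgfb and Mcam lie left of all MI-NS libraries against endothelial markers, and 7 of the 9 genes lie right of all MI-NS libraries against fibroblast markers.

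Markers of other cell types were read in the same libraries. Schwann and glial markers, listed because Cspg4 and Mcam are also used there, summed to 15.7 to 21.3 CPM in MI-NS and 13.9 to 14.3 CPM in MI-DAPA over 7 genes, and 1 of the 6 tested, Sox10, fell. Sox10 was no longer called with MI-NS replicate 3 left out, nor with either replicate 1 or 3 of MI-DAPA left out, while 2 genes of this list fell without MI-NS replicate 2. Platelet markers, listed because platelets carry PDGF, summed to 11.5 to 13.3 and 8.74 to 13.0 CPM over 7 genes, most of it from Pf4 (8.72 ± 0.518 and 7.51 ± 1.08 CPM). Macrophage markers summed to 420 to 517 and 325 to 365 CPM over 10 genes, of which C1qa, C1qb, C1qc and Lyz2 fell and 6 did not pass; without MI-DAPA replicate 1 there were 2. Adipocyte markers summed to at most 3.77 CPM and mesothelial and epicardial markers to 5.64 to 17.1 and 3.92 to 5.57 CPM, the highest in MI-NS replicate 1. Lymphatic markers summed to 92.9 to 103 and 97.5 to 108 CPM, with Prox1 up (0.53 ± 0.13), Pdpn down (-1.17 ± 0.22) and 3 tested genes that did not pass. Prox1 was no longer called when MI-NS replicate 1 or 2 or MI-DAPA replicate 1 or 3 was left out, nor with scaling by library totals. The part of these lists in the results was not tested.

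For each gene up to 2 genes with the most similar levels over the 6 libraries were taken from 11851 genes, by Pearson correlation of log2 CPM. As the highest of many, and over 6 libraries in 2 groups, these correlations describe likeness only. For Pdgfb they were Npdc1 and Exoc3l (r of 0.999 and 0.996), which had log2 changes of -0.76 and -0.80. For Mcam they were Plekho1 and Plekhg2 (0.999 and 0.997), for Rgs5 Grasp and Wasf3 (0.9925 for both), for Pdgfrb Igfbp4 and Car8 (0.987 and 0.984), for Cspg4 Ptk2b and Parva (0.996 and 0.996) and for Notch3 2610001J05Rik and Cacnb1 (0.992 and 0.984). For Pdgfa they were Slc7a6os and Trp53bp1 (0.999 and 0.989), for Pdgfd Tnrc18 (0.9885) and for Pdgfc Rbm15b and Gm5595 (0.982 and 0.979).

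**Figure D5:**
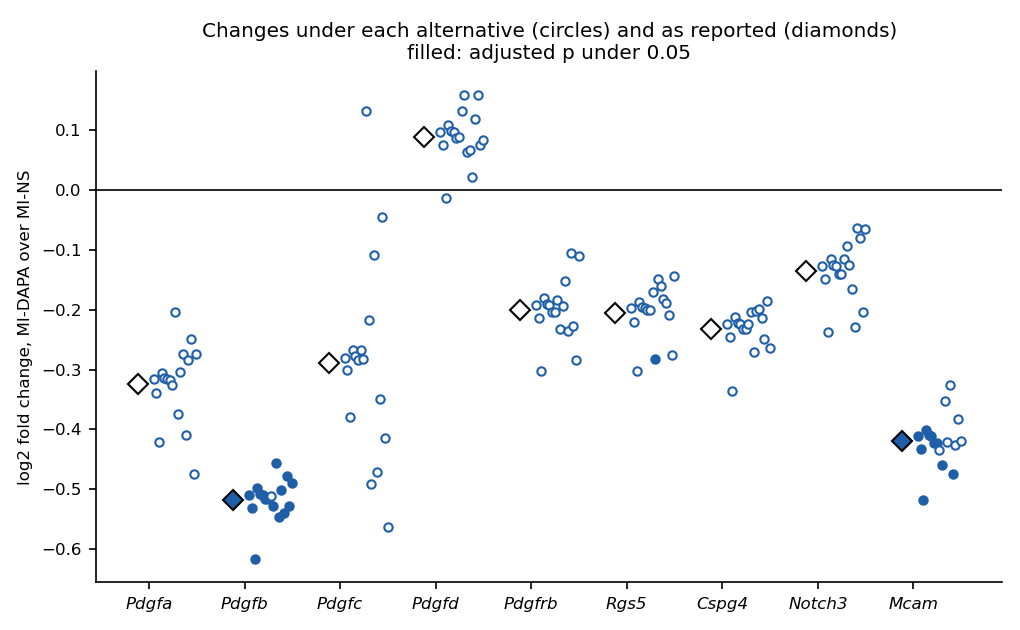
Log2 fold change of each of the 9 genes as reported (diamonds) and under 17 alternatives (circles: other scalings, filters, tools, the replicate block and left-out libraries), filled where the adjusted p is under 0.05. Pdgfb stays between -0.62 and -0.46 and is filled except without both replicates 3, Mcam is filled in part, and Pdgfc ranges from -0.56 to 0.13.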

How the data were processed

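The authors deposited 1 table of raw counts per library (whole numbers, no rows other than genes). StringTie 1.3.0, edgeR and the build mm10 are listed, per the submitters' processing notes; aligner, counter and use of strand: not given in the sources used here. Groups come from the sample titles. The members, lists and alternatives were chosen with earlier results of these data known.

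Counts were tested across all genes with edgeR 4.0.16 in R 4.3.3: filterByExpr by group (minimum count 10, minimum total 15), TMM scaling, glmQLFit and glmQLFTest, Benjamini-Hochberg adjustment and a threshold of 0.05. SEs are the absolute log2 fold change over the square root of F. The filter, scaling, tool (DESeq2 1.42.0, limma-voom with limma 3.58.1), a replicate block and each library were varied. Log2 CPM used a prior count of 2. Lengths are unions of GENCODE M21 exons, whose gene coordinates equal the deposited ones for 5 of the 9 members. Named genes are the members, all further pericyte markers, up to 4 called genes with the smallest p of each other list, and the closest patterns; other list genes were named after their values were seen, and a few genes under this rule are not reported here. A floor of 3 counts is 0.133 to 0.178 CPM and covers counting error alone. No 2 libraries were alike to within sampling noise (chi-square over degrees of freedom of at least 10.5). The steps were tested on simulated data.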

Additional observations from a re-analysis of the deposited data

How the results depend on the processing

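Pdgfb was lower in all 17 alternatives and past the threshold in 16; Mcam was lower in all 17 and past it in 10. Single libraries left out gave log2 changes of -0.55 to -0.46 for Pdgfb, -0.47 to -0.33 for Mcam and -0.28 to -0.15 for Rgs5, and 1 to 3 members lower. Without replicate 3 of both groups, which have differently named files, Pdgfb was at -0.51 and Mcam at -0.43, and by edgeR 0 members passed (2 at an unadjusted p under 0.05), as did 0 PDGF signalling genes in either direction (8 unadjusted) and 0 further pericyte markers in either direction (7 unadjusted); over all genes 24 passed, against 2304, and 22.2% were under 0.05 unadjusted. Pdgfc changed sign there, to 0.13. Pairs added after seeing the data left 1 member called lower, Pdgfb. Its edgeR adjusted p was 0.0490 without both replicates 1 and 0.0202 without both replicates 2. Mcam did not pass in these fits, at -0.38 (edgeR adjusted p = 0.0731) and -0.42 (0.0580). Without both replicates 1, 1 PDGF signalling gene and 1 pericyte marker were called lower. Without both replicates 2, 1 PDGF signalling gene was called higher. With library totals as the only scaling, which shifts the median of all genes by -0.10, Pdgfd was at -0.0138, 6 pericyte markers fell, 1 PDGF signalling gene rose, and calls over all genes were 24.8% higher against 52.6%. DESeq2 gave 5 rises in PDGF signalling. Leaving out 1 library gave 1 to 3 pericyte markers lower, 2 to 3 PDGF signalling genes lower and 1 to 4 higher. Same-numbered libraries deviated with correlations of 0.044, -0.005 and 0.113 for replicates 1 to 3, and differently numbered ones with -0.097 to 0.044. Replicate 3 had the highest mitochondrial share of its group, 42.0% in MI-NS and 40.7% in MI-DAPA. Whether same-numbered libraries share a batch was not tested. With the replicate block Pdgfb was at -0.52 and Mcam at -0.42, both still called. Under that block 10 endothelial markers against 6 and 1 R4 RGS gene against 2 fell, and 2307 genes were called. The block also gave 1 R4 RGS gene higher, against 0 in the main fit. Pdgfc had the fewest counts of the members, 26 to 68 per library. The causes of these changes were not tested.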
